A study of Homo sapiens with 3 samples.

Results

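The snaR arrays of 19q13.33 are 2 stretches of tandemly repeated noncoding RNA genes on human chromosome 19. Their p53 peaks were taken by position. A member was any peak of the 3 deposited lists with its summit at chromosome 19, 48350000 to 48480000 (array 1) or 50580000 to 50680000 (array 2), in hg19. In all, 150 of 35740 peaks were members: 64 of 17321 in ERG shRNA, 0 of 433 in ERG shRNA 2 and 86 of 17986 in the control. The windows were chosen by the density and significance of peaks in these same lists. Peak numbers, pileups, folds and q-values inside them therefore describe the choice and are given without a test.

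The cells were VCaP, an established epithelial line from a human prostate cancer, which carries the endogenous p53 mutation R248W in every group. The groups were an shRNA against ERG (ERG shRNA), an ERG shRNA numbered 2 (ERG shRNA 2) and an shRNA against luciferase as the control. Chromatin immunoprecipitation and sequencing (ChIP-seq) for p53 used the DO-1 antibody in ERG shRNA and the control, per the labels, and the label of ERG shRNA 2 names no antibody. At least 3 immunoprecipitations were pooled into each library, so each group had 1 library, no replicate check and no p-value. ERG protein, ERG RNA and snaR RNA levels were not analysed here.

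snaR genes (small NF90-associated RNAs) encode short, highly structured RNAs made by RNA polymerase III. They bind NF90, a double-stranded RNA binding protein, and are found in humans and African great apes. They are known from testis and from many immortalised cell lines. The p53 protein is a sequence-specific transcription factor, and R248W changes a residue of its DNA-binding surface. The series asked whether ETS factors such as ERG bring mutant p53 to chromatin.

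The RefSeq gene table (GRCh38.p14) lists 28 snaR genes, 26 of them on chromosome 19. In gene order, the first large cluster holds 10 neighbours from SNAR-A12 to SNAR-C1, of which 5 are SNAR-A genes, SNAR-A1 among them, and 5 are SNAR-C genes. The next large cluster holds 12, from SNAR-A4 to SNAR-D, with 9 SNAR-A genes, SNAR-B1, SNAR-B2 and SNAR-D. The A, B, C and D names mark sequence subfamilies of the same RNA. That table is in another build than the peaks, so no peak was assigned to SNAR-A1, SNAR-B1, SNAR-C1, SNAR-D or any other copy. Copies of a tandem array are alike in sequence. The sources used here do not give how reads that match several copies were placed, so the copy to which a peak belongs is uncertain throughout. Whether the repeated pattern below depends on that placement was not tested.

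ERG shRNA held 4853617 tags, ERG shRNA 2 52175068 and the control 9258451. Each library was set against an input of 14360465 tags. Pileup is the number of tags over a summit after extension to 115 bp in ERG shRNA and 148 bp in the control. Fold enrichment is the pileup over the local background, each with 1 added, and both are the authors' own values, read here within a list.

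The arrays were islands of peaks in an otherwise sparse part of chromosome 19. ERG shRNA had 35 peaks in array 1 and 29 in array 2, and the control had 41 and 45. Together they made up 26.8% of the 239 ERG shRNA peaks and 36.9% of the 233 control peaks on chromosome 19. ERG shRNA 2, the deepest library, listed 0 peaks in the arrays and 0 on the whole of chromosome 19. A list holds only peaks past a cutoff, so this 0 does not mean an absence of signal. How much signal the ERG shRNA 2 list could miss was not computed. Nearly all members of an array formed an unbroken run: array 1 from 48408103 to 48461988 (53.9 kb) and array 2 from 50594941 to 50642343 (47.4 kb), with no gap over 10 kb between neighbouring summits. The exception was an ERG shRNA peak at 48372939 to 48373053 (fold 3.31, pileup 3), 35424 bp before the next summit.

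Outside the windows the nearest peaks were far away in most directions. Before array 1 the nearest ERG shRNA summit lay 795 kb from the window and the nearest control summit 1858 kb. After array 1 the distance was 403 kb in ERG shRNA. The control had a peak only 1.74 kb past that edge, at 48481715 to 48481862 (fold 4.64). Around array 2 the nearest summits lay 394 and 648 kb away in ERG shRNA and 402 and 674 kb away in the control.

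**Figure D1:**
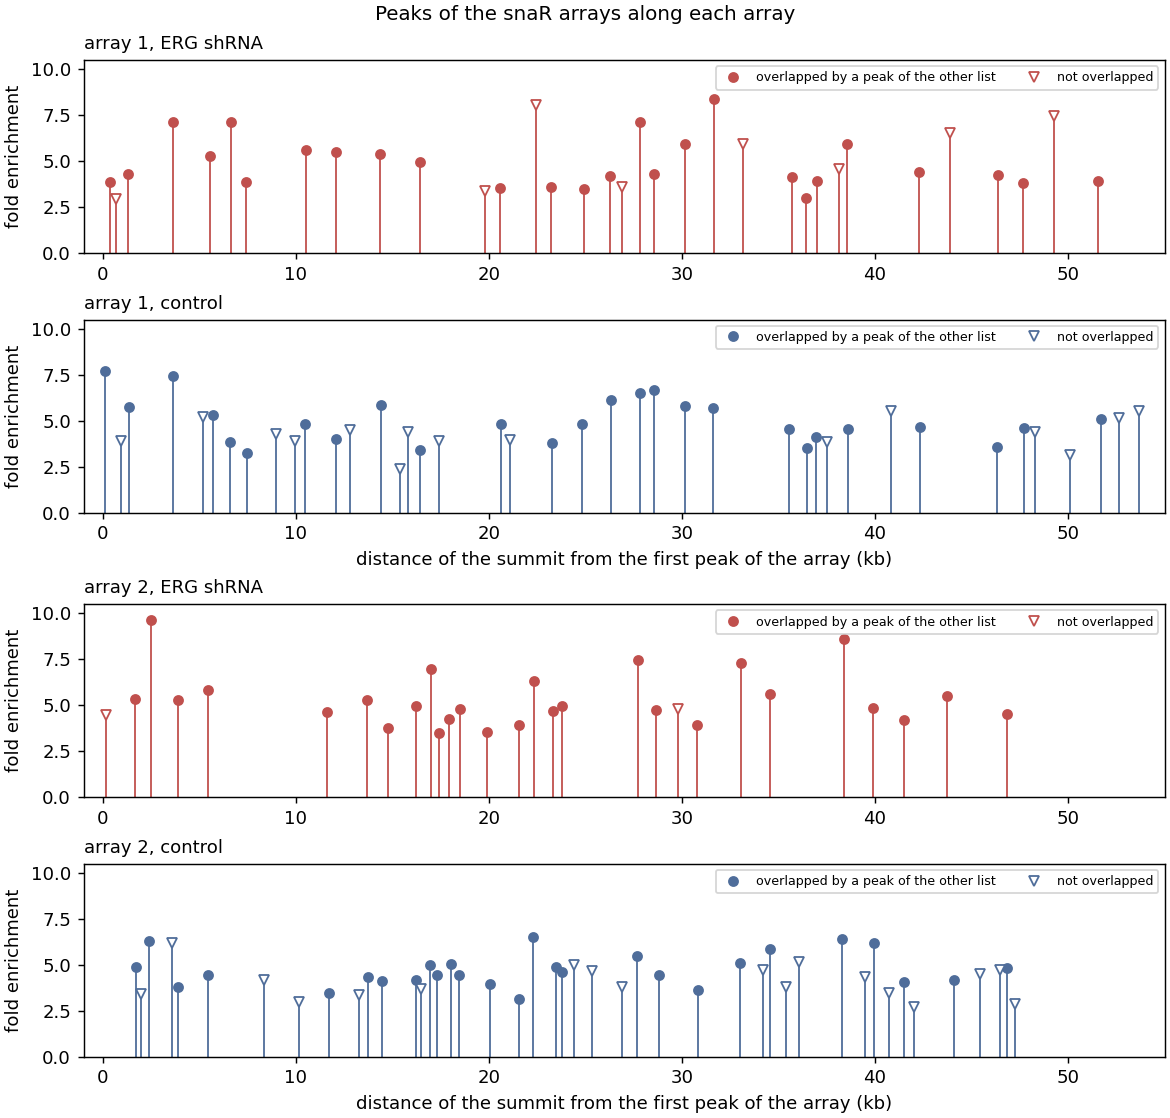
Fold enrichment (vertical axis) of each peak against the distance of its summit from the first peak of the array in kb (horizontal axis), with a panel per array and list. Filled circles were overlapped by a peak of the other list and open triangles were not. Peaks stand across the whole of both arrays, and the highest is 9.65 in ERG shRNA and 7.71 in the control. The isolated ERG shRNA peak before array 1 is not drawn.

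Array peaks carried more tags and were wider than most peaks of their own list. In ERG shRNA the median pileup was 7 in array 1 and 8 in array 2, against 5 in the rest of the list. In the control it was 13 and 14, against 6. The median width was 159 and 179 bp in ERG shRNA, against 115 bp in the rest of the list, which is also the smallest width MACS allowed there. In the control it was 233 and 255 bp, against 162 bp. Only 8 of 64 ERG shRNA members and 5 of 86 control members had the smallest allowed width. The widest were 331 bp in ERG shRNA, at 50641559 to 50641889, and 725 bp in the control, at 50622504 to 50623228.

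The local background was raised over the arrays as well. At array peaks its median was 3.95 and 4.34 times the lowest, genome-wide value in ERG shRNA (arrays 1 and 2), and 3.81 and 4.32 times in the control. In the rest of the lists it was 1.32 times in ERG shRNA and 1.27 times in the control. The background was largest at the control peak 48423252 to 48423494, where it was 11.4 times the genome-wide value, and that peak had the lowest fold of all members (2.35, with a pileup of 15). In ERG shRNA the same held at 48408778 to 48408901, with 9.81 times the genome-wide value and a fold of 2.97.

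Fold enrichment set the arrays less apart than pileup did. The median fold was 4.32 and 4.87 in ERG shRNA, against 4.18 in the rest of the list, and 4.56 and 4.42 in the control, against 4.37. A fold of at least 5 was reached by 26 of 64 ERG shRNA members (40.6%, against 17.4% of the whole list) and by 26 of 86 control members (30.2%, against 26.0%). The added 1 matters here. Without it, pileup over background had a median of 9.09 at the ERG shRNA members and 17.2 in the rest of that list, and of 6.0 at the control members and 9.85 in the rest. The arrays were thus above their list by the deposited fold and below it by the plain ratio. A −log10 q of at least 5 was reached by 12 of 64 ERG shRNA members (18.8%, against 5.99% of the list) and 16 of 86 control members (18.6%, against 6.65%). Dense clusters of such peaks were what pointed to the arrays.

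**Figure D2:**
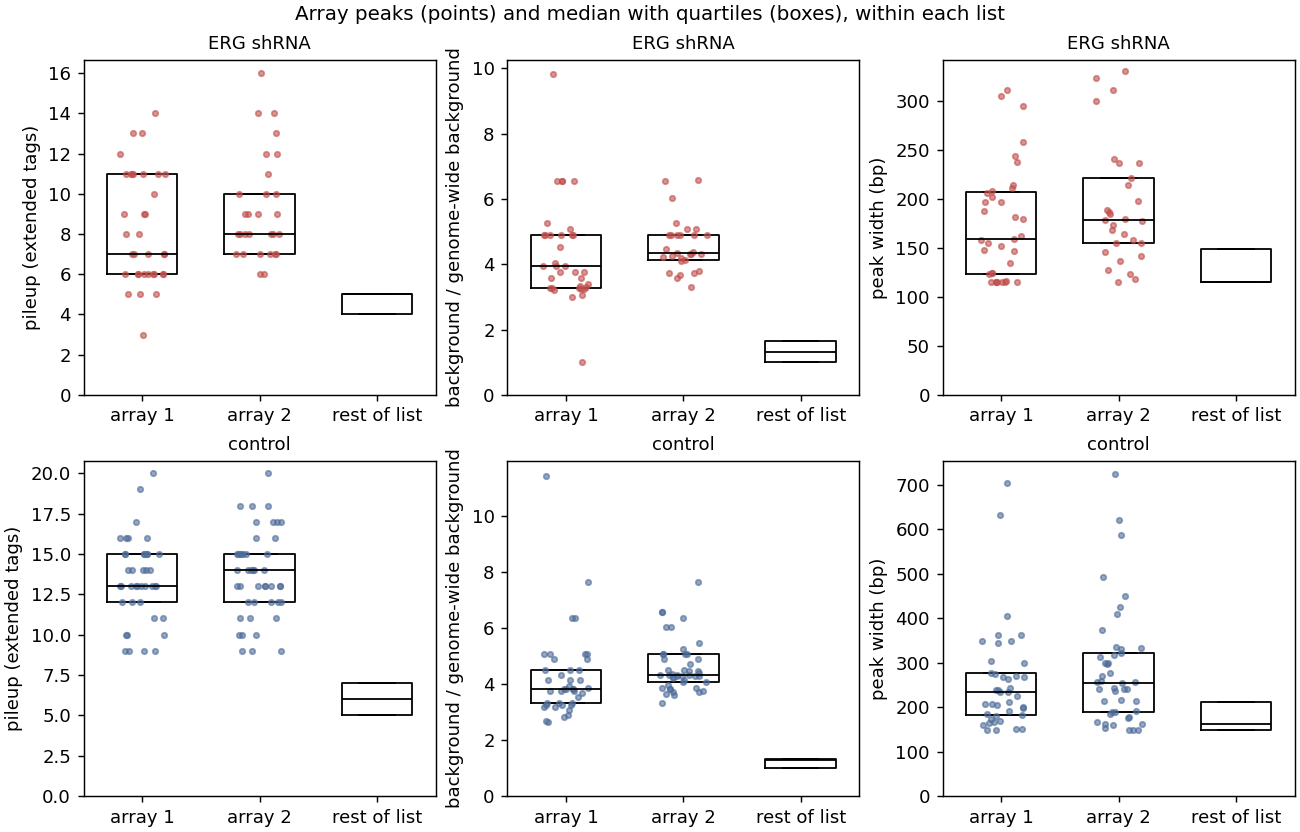
Pileup in extended tags, background relative to the genome-wide background, and peak width in bp (vertical axes) for array 1, array 2 and the rest of the list, with ERG shRNA in the upper row and the control in the lower. Points are members and boxes give the median and quartiles. In both lists the array boxes for pileup and background lie above the box of the rest.

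The strongest members did not rank at the top of their lists. In array 1, ERG shRNA was highest at 48439571 to 48439828 (fold 8.37, pileup 13, −log10 q 8.51), at 48430447 to 48430601 (fold 8.05, pileup 13) and at 48457299 to 48457478 (fold 7.46, pileup 14). The control was highest there at 48408103 to 48408464 (fold 7.71, pileup 17), at 48411616 to 48411960 (7.44, pileup 19) and at 48436569 to 48436733 (6.65, pileup 16). These leading places differed between the lists. By fold, the leading ERG shRNA peak ranked 273 and the leading control peak 446.

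In array 2 the lists shared leading places. ERG shRNA was highest at 50597331 to 50597515 (fold 9.65, pileup 16, −log10 q 11.6), at 50633256 to 50633444 (8.63, pileup 14) and at 50622572 to 50622726 (7.45, pileup 14). The control was highest at 50617032 to 50617653 (fold 6.52, pileup 20), at 50633174 to 50633416 (6.38, pileup 17) and at 50597252 to 50597582 (6.31, pileup 17). The first and the second of these ERG shRNA peaks overlapped the last and the second of these control peaks. The best ranks by fold were 172 in ERG shRNA and 1101 in the control. At the low end of array 1, ERG shRNA had folds of 2.97 at 48408778 to 48408901 and 2.98 at 48444516 to 48444630. The control had 2.35 there at 48423252 to 48423494 and 3.16 at 48458036 to 48458236. In array 2, ERG shRNA reached 3.48 at 50612207 to 50612379 and 3.57 at 50614772 to 50615071. The control reached 2.72 there at 50636823 to 50636970 and 2.88 at 50642045 to 50642343.

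The lists placed many of their array peaks at the same sites. In ERG shRNA, 26 of 35 peaks of array 1 (74.3%, exact 95% interval 56.7 to 87.5) and 27 of 29 of array 2 (93.1%, 77.2 to 99.2) were overlapped by a control peak by at least 1 bp. Over the whole ERG shRNA list the share was 14.0%. In the control, 26 of 41 peaks of array 1 (63.4%, 46.9 to 77.9) and 27 of 45 of array 2 (60.0%, 44.3 to 74.3) met an ERG shRNA peak, against 13.5% of the whole list. The intervals cover counting error only and treat peaks as independent, which neighbours in a tandem array may not be. Dense peaks meet more easily: ERG shRNA peaks covered 11.2% and 11.8% of the runs of arrays 1 and 2, and control peaks 19.6% and 26.8%. A peak can meet another with any of its bases, so density alone would give a larger share than that covered. How much larger was not tested.

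The distance between summits was taken over overlapping peaks alone, so the overlap itself keeps it short. The summits of these peaks lay a median of 36 bp apart in array 1 and 61 bp in array 2, and at most 222 and 347 bp. Merged over both lists, array 1 had 50 sites, of which 26 held peaks of both lists, 9 an ERG shRNA peak alone and 15 a control peak alone. Array 2 had 47 sites, with 27 in both, 2 in ERG shRNA alone and 18 in the control alone. The control library was the deeper one of this pair, and with 1 library per group an effect of depth and one of the ERG shRNA cannot be told apart.

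Overlap differed among other places dense in ERG shRNA peaks. On chromosome X at 49 to 50 Mb the overlapped peaks were 1 of 43 in ERG shRNA (2.33%, 0.0589 to 12.3) and 1 of 4 in the control (25%, 0.631 to 80.6). On chromosome 4 at 9 to 10 Mb they were 3 of 32 in ERG shRNA (9.38%, 1.98 to 25) and 3 of 5 in the control (60%, 14.7 to 94.7). On a short stretch of chromosome 22 with the highest ERG shRNA folds, they were 10 of 11 in ERG shRNA (90.9%, 58.7 to 99.8) and 10 of 10 in the control (100%, 69.2 to 100). In the rest of chromosome 19 the share was 19 of 175 (10.9%, 6.66 to 16.4) in ERG shRNA and 19 of 147 (12.9%, 7.96 to 19.4) in the control. With only 4 control peaks on chromosome X and 5 on chromosome 4, few ERG shRNA peaks there could be overlapped at all. These regions were chosen with earlier results known, and no difference between them was tested.

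**Figure D3:**
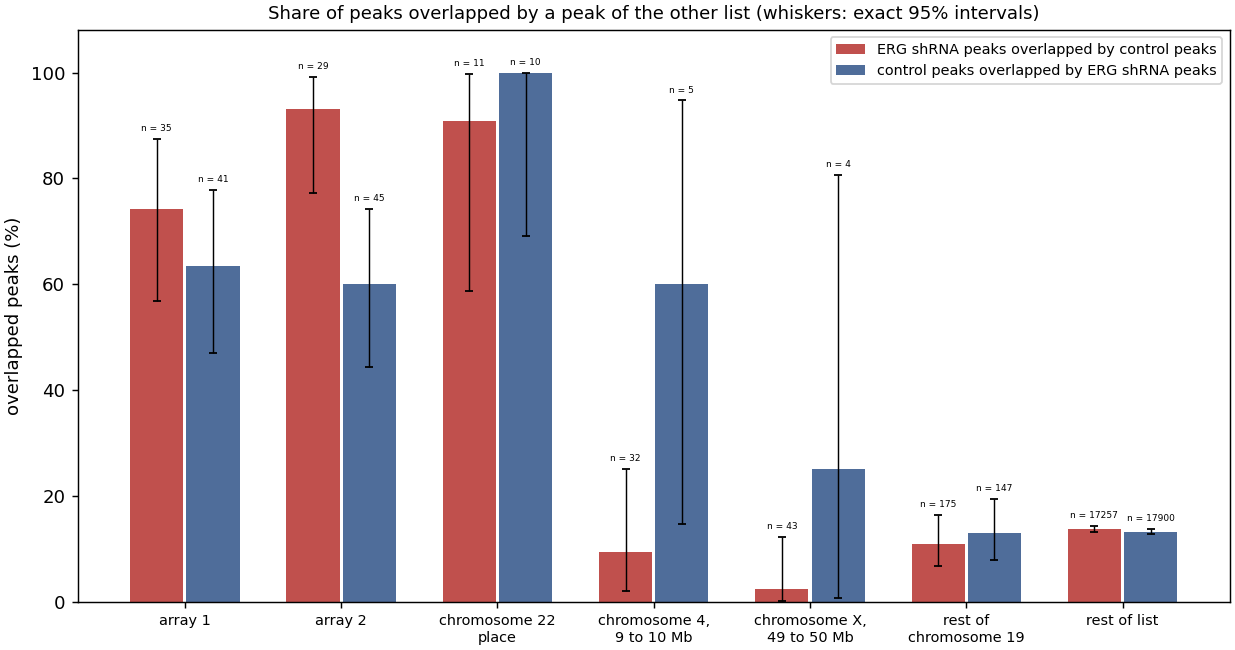
Percentage of peaks overlapped by a peak of the other list (vertical axis) in each array, in 3 other regions dense in ERG shRNA peaks, in the rest of chromosome 19 and in the rest of each list. Whiskers are exact 95% intervals for counting error, which treat peaks as independent, and n is the number of peaks. In arrays 1 and 2 the shares are 74.3% and 93.1% for ERG shRNA and 63.4% and 60.0% for the control.

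Peaks within an array followed each other at short intervals. The median gap between neighbouring summits was 1528 bp in array 1 and 1451 bp in array 2 for ERG shRNA, and 1069 and 787 bp for the control. Gaps of 1400 to 1700 bp numbered 7 of 34 and 9 of 28 in ERG shRNA and 11 of 40 and 6 of 44 in the control. Gaps of 300 to 700 bp numbered 6 and 4 in ERG shRNA and 11 and 14 in the control. No single spacing took up most of the neighbouring gaps.

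Among distances of 1000 to 8000 bp between summits, a repeat near 5.35 kb was the commonest in each array and list. Over distances of 1000 to 8000 bp, pairs within 100 bp of the commonest distance between summits of a list were taken. Their median distance was 5371 bp in array 1 and 5347 bp in array 2 for ERG shRNA, and 5327 and 5351 bp for the control. Pooled over both lists and arrays, 63 such pairs had a median of 5349 bp, taken as the unit below. In array 1, 14 pairs of ERG shRNA summits and 18 pairs of control summits lay within 100 bp of 1 unit apart. The median count over all distances from 1000 to 20000 bp was 3 in ERG shRNA and 4 in the control. In array 2 the numbers were 13 pairs in ERG shRNA and 17 in the control, against medians of 3 and 6. The unit was picked as the commonest distance in these same summits, so counts above the median at 1 unit follow from that choice.

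Counts at further units differed between the arrays. At 2 units there were 11 pairs in array 1 and 9 in array 2 for ERG shRNA, and 15 and 13 for the control. At 3 units array 2 had 13 pairs in each list, while array 1 had 6 in ERG shRNA and 4 in the control, beside medians of 3 and 4. At 4 units ERG shRNA had 7 pairs in array 1 and 6 in array 2, and the control had 1 and 10. At 5 units ERG shRNA had 1 and 3, and the control 1 and 4. In array 1 the control count at 3 units was thus at its median. More pairs of that array lay at somewhat shorter distances, 10 at 15820 bp in ERG shRNA and 11 at 15760 bp in the control. Its counts at 3 units therefore depend on the exact distance taken. The medians cover distances up to 20000 bp only, and 4 and 5 units lie beyond. Fewer pairs can lie so far apart within a run, so those counts cannot show whether the repeat fades. Whether the repeat itself differs between the arrays was not tested. At 1.5 units, between the repeats, the counts were 4 and 0 in ERG shRNA and 3 and 2 in the control. A partner 1 unit away was found for 20 of 35 and 20 of 29 ERG shRNA summits in arrays 1 and 2 (57.1% and 69.0%), and for 29 of 41 and 27 of 45 control summits (70.7% and 60.0%). Between the lists, 22 of 35 ERG shRNA summits in array 1 and 22 of 29 in array 2 had a control summit 1 unit away. Because many sites are shared, this last count is not independent of the others. The unit came from these same summits, so the partner counts only describe the pattern.

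**Figure D4:**
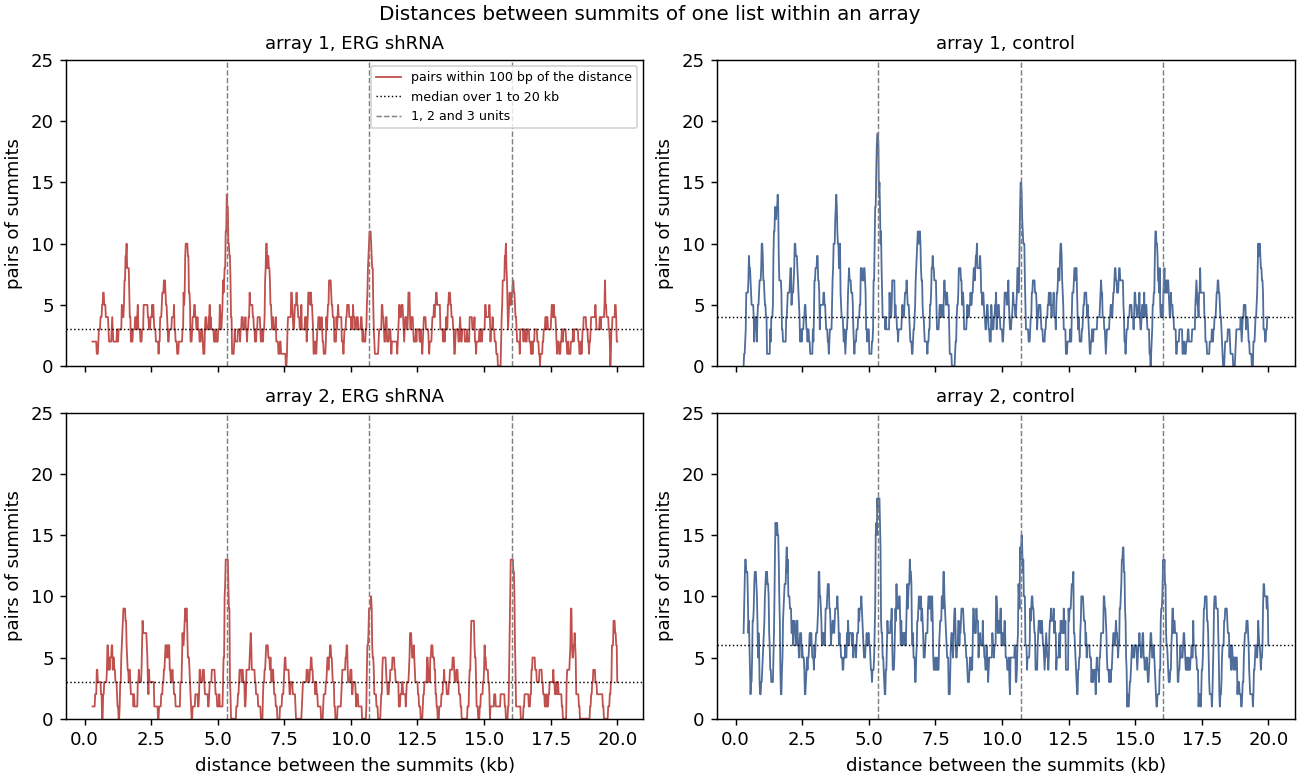
Number of pairs of summits (vertical axis) within 100 bp of a given distance in kb (horizontal axis), for ERG shRNA (left) and the control (right) in array 1 (top) and array 2 (bottom). Dashed lines mark 1, 2 and 3 units of 5349 bp and the dotted line the median count. Each panel reaches its highest count close to 1 unit, which in array 2 of ERG shRNA is equalled at 3 units. The unit was picked from these same pairs. At 1 unit there were 14 and 13 pairs in ERG shRNA and 18 and 17 in the control.

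Within the unit, 2 other distances recurred, chosen after the profile was seen. Near 1.5 kb, the commonest distance was 1579 bp in array 1 and 1534 bp in array 2 for ERG shRNA, with 10 pairs each, and 1577 and 1534 bp for the control, with 14 and 16 pairs. The 16 control pairs of array 2 came close to the 17 pairs at 1 unit there. Near 3.8 kb it was 3825 bp in both arrays for ERG shRNA (10 and 9 pairs) and 3784 and 3817 bp for the control (14 and 10 pairs). In each array and list the shorter and the longer distance add up to about 1 unit. The ranges searched, 1300 to 1700 bp and 3600 to 4000 bp, allow only sums around the unit. Sites that recur in each unit also give both distances together, so the sum is no separate result.

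Summits also gathered at certain positions of the folded unit. When 4 windows of 300 bp, which make up 22.4% of the unit, were placed where most summits of both lists lay, they held 24 of the 34 ERG shRNA summits of the array 1 run (70.6%) and 25 of the 41 control summits (61.0%). In array 2 they held 21 of 29 (72.4%) and 26 of 45 (57.8%). Since the windows were placed on these summits, the shares only describe the gathering. In array 1 the fullest window, at 3.52 kb from the start of the unit, held 7 ERG shRNA and 8 control summits. The window at 1.17 kb from the start of the unit held 8 ERG shRNA summits, all from different units, and 3 control summits. The window at 4.99 kb held 5 ERG shRNA and 8 control summits. In array 2 the window at 0.87 kb held 7 ERG shRNA and 6 control summits, and the one at 3.96 kb held 6 and 7. The positions are counted from the first peak of each array, so they are not comparable between arrays.

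**Figure D5:**
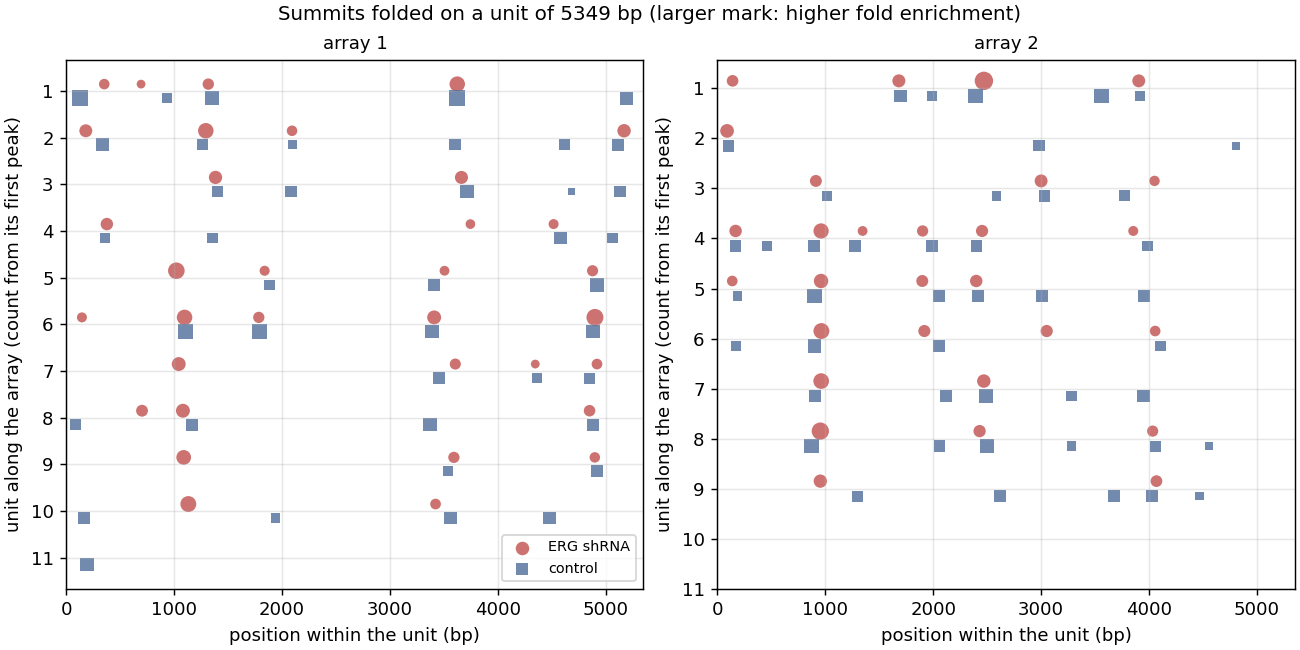
Each summit plotted by its position within a unit of 5349 bp (horizontal axis) and by the number of its unit along the array (vertical axis, running down), with ERG shRNA as circles and the control as squares and larger marks for higher fold. Columns of marks are positions filled in many units, such as the one at 0.87 kb in array 2 with 7 ERG shRNA and 6 control summits.

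Some of these columns formed ladders, in which each next summit lay 1 unit further on within 100 bp. Ladders of at least 3 rungs numbered 3 in array 1 and 2 in array 2 for ERG shRNA, with 14 and 10 rungs in all. The control had 3 in each array, with 13 rungs in each.

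The longest ladder was in array 2. ERG shRNA had 7 rungs there, with summits at 50606552, 50611949, 50617298, 50622650, 50627997, 50633338 and 50638687. Its steps were 5397, 5349, 5352, 5347, 5341 and 5349 bp, so that 5 of the 6 agreed within 11 bp. The folds of the rungs, in that order, were 4.66, 6.95, 6.30, 7.45, 7.28, 8.63 and 5.53, and the pileups were 10, 13, 11, 14, 12, 14 and 12. The median fold of the rungs was 6.95, against 4.78 in the other 22 ERG shRNA peaks of the array. A control peak overlapped every rung, with folds of 3.46, 4.98, 6.52, 5.47, 5.11, 6.38 and 4.15 and pileups of 14, 15, 20, 17, 14, 17 and 17. In the control list, the 5 summits from 50611883 to 50633255 formed a ladder at the same place, with steps of 5316 to 5354 bp and a median fold of 5.47, against 4.32 in the other 40 control peaks. The median of these rungs was higher than that of the other peaks in each list. Single peaks did not all follow: the first ERG shRNA rung (4.66) was below the median of the others, and the highest ERG shRNA peak of array 2 (9.65) was not a rung.

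In array 1 the longest ladder was found in ERG shRNA but for the most part not in the control. Its 6 summits lay at 48430519, 48435944, 48441239, 48446627, 48451983 and 48457375, with steps of 5295 to 5425 bp. The folds were 8.05, 7.16, 5.96, 5.96, 6.54 and 7.46 and the pileups 13, 11, 11, 11, 11 and 14. The median fold was 6.85, against 4.21 in the other 29 ERG shRNA peaks of array 1. A control peak overlapped the rungs at 48435944 (fold 6.48, pileup 15) and 48446627 (fold 4.56, pileup 14). The other 4 rungs had none, and the nearest control summits lay 864, 1512, 1557 and 808 bp away. These 4 were all of the array 1 ERG shRNA peaks with a fold of at least 5 and no control overlap, and 10 others of that fold had one. In array 2 all 12 ERG shRNA peaks of that fold were overlapped. Over the whole ERG shRNA list, 38.5% of the peaks of that fold were overlapped. Conversely, 4 of 15 control peaks of that fold in array 1 and 3 of 11 in array 2 had no ERG shRNA overlap. Over the whole control list, 29.5% of the peaks of that fold had one.

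A listed peak needed enough tags to pass the p cutoff. At the median background of array 1 the control could list a pileup of 7 or more, 3.62 times its background, and ERG shRNA a pileup of 5 or more, 6.13 times its background. At array 2 the limits were 8 in the control (3.65 times) and 5 in ERG shRNA (5.57 times). These limits hold at the median background of each array and were not computed at the 4 unmatched rungs. The lowest pileup in fact listed was 9 in each array for the control, above these limits, and 3 in array 1 and 6 in array 2 for ERG shRNA. The 3 belongs to the isolated peak, where the background was at its genome-wide value. A control signal below its limit at the 4 unmatched rungs cannot be seen in a peak list.

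A further ladder of array 1 was present in both lists. ERG shRNA had 5 rungs at 48434376, 48439747, 48445115, 48450395 and 48455793, with folds of 4.21, 8.37, 3.94, 4.40 and 3.83 and pileups of 6, 13, 6, 7 and 7. The control had 5 rungs at 48434415, 48439727, 48445044, 48450426 and 48455817, with folds of 6.15, 5.68, 4.09, 4.68 and 4.60 and pileups of 15, 14, 11, 13 and 15. The summits of the lists lay 20 to 71 bp apart on each rung. The rung at 48439747 stood out in ERG shRNA with a pileup of 13 against 6 or 7 on the other rungs, while the control rungs ranged only from 11 to 15. The median fold of this ladder was 4.21 in ERG shRNA, against 4.46 in the other 30 peaks of array 1, and 4.68 in the control, against 4.51 in the other 36. The remaining ladders had 3 to 5 rungs, with rung folds from 4.26 to 7.16 in ERG shRNA and from 3.16 to 5.79 in the control. Their medians lay on either side of the other peaks. In ERG shRNA the ladder from 48409419 had 5.53, against 4.27 in the others, and the ladder from 50612890 had 4.68, against 4.97. In the control the ladder from 50611155 had 3.79, against 4.43. The other control ladders, from 48413291, 48432904 and 50612976, had 4.61, 5.16 and 4.74, against 4.56, 4.47 and 4.37.

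A search for a single period used the length of the mean phase vector, which is 1 when all summits share a phase. Over trial periods of 500 to 6000 bp the best was 760 bp in array 1 (vector length 0.464) and 766 bp in array 2 (0.688) for ERG shRNA, and 758 bp (0.434) and 599 bp (0.313) for the control. Such a search always returns a best period, and none of these lengths was set against the value that unordered summits would give. The unit of 5349 bp divided by 7 is 764 bp, and divided by 9 it is 594 bp, close to these periods. Whether the periods are parts of the unit or separate from it was not tested. The ERG shRNA period of array 1, applied to the control summits, gave 0.424 with phases 5.55 bp apart, beside 0.434 at the control's own best. In array 2 the ERG shRNA period gave 0.293 in the control, with phases 15.7 bp apart. The control's period of 599 bp gave 0.199 in ERG shRNA. Because many sites are shared, the summits of one list are not an independent check of the period or phase of the other.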

How the data were processed

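The deposited peak lists of 3 p53 ChIP-seq libraries were used, 1 per group. The submitters' processing notes name the build hg19 and the tools MACS2, Bowtie2, bedtools and Picard 2.14.0. Peaks were narrow ones, called per library against an input at a p cutoff of 0.001 by MACS 2.2.7.1, which, per the file headers, kept at most 1 tag per position and scaled the larger dataset to the smaller. The deposited pileup is a coverage signal in extended tags. The deposited fold enrichment is a ratio with 1 added to both parts. The deposited significance columns hold −log10 p and −log10 q with damaged names. Their order was checked by recomputing p from pileup and background: 17314 ERG shRNA peaks (7 above 80-fold left out) and all 17986 control peaks came within 0.001. The headers state that q would not be calculated, yet the column holds values.

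Members and lists were chosen with earlier results of these data known. Overlap meant at least 1 bp shared, and intervals are exact Clopper-Pearson at 95%. Background was recovered from pileup and fold. Named were the 3 highest, 2 lowest and the widest peaks by rule. Ladders, windows and pair distances were added after seeing the data, so the peaks they name were singled out with values in view. The overlap rule was tested on 3000 simulated peaks with 0 misassigned. Of the 28 snaR symbols, 0 matched the RefSeq promoter table, so the planned motif search was not run. Scripts ran on matplotlib 3.10.9, scipy 1.17.1, pandas 2.3.3, numpy 2.4.6 and Python 3.11.15.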

Additional observations from a re-analysis of the deposited data

How the results depend on the processing

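Of 80 recomputed values, 41 stayed within the exact interval of a share, 1.5 times a count, 10% of a median or 1% of a period, and 39 moved further. Values follow in the order array 1 ERG shRNA, array 1 control, array 2 ERG shRNA, array 2 control. At −log10 q of at least 5 the peak counts were 7, 9, 5 and 7, the median gaps 5408.5, 2546.5, 8024 and 4540.5 bp, and the periods 1337, 1761, 764 and 536 bp. At a fold of at least 5 the counts were 14, 15, 12 and 11. The overlapped shares were 48.6%, 41.5%, 55.2% and 35.6% for a reciprocal overlap of 50%, and 91.4%, 92.7%, 96.6% and 88.9% for peaks within 1000 bp. They were 62.9%, 53.7%, 72.4% and 46.7% for summits within 100 bp, and 42.9%, 33.3%, 60.0% and 42.9% with both lists at that q. Peak midpoints gave periods of 775, 541, 765 and 766 bp, trial periods of 1000 to 3000 bp gave 1334, 1784, 1805 and 1804 bp, and gaps over their nearest whole number of periods gave 766, 764, 769 and 532 bp. The median of the pair distances near the commonest one, added after seeing the data, gave 5371, 5327, 5347 and 5351 bp. Trial periods of 1000 bp or more and this median cannot return the reported phase periods. Of the other 16 period values, 7 moved. These 16 include values that start from the fitted period (gaps over whole numbers of periods) or reuse nearly all summits (the unbroken run). With peak midpoints or the q limit, only the array 2 ERG shRNA periods stayed, at 765 and 764 bp. Keeping only the unbroken run of peaks left out the isolated ERG shRNA peak of array 1 and no other. Its values could therefore hardly move, none did, and they are part of the 41 that stayed. Why other values moved was not tested. No paired analysis was possible because there was a single library of each kind, which also leaves no replicate to omit. The median pileup was 7 or 8 tags at ERG shRNA members and 13 or 14 at control members. The part of depth in which sites were listed was not tested.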
